A study of Homo sapiens with 3 samples.

Results

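The replication-dependent histone genes encode the H1, H2A, H2B, H3 and H4 proteins that package newly made DNA. They were taken as every gene whose current symbol is H1-1 to H1-6 or a numbered H2AC, H2BC, H3C or H4C name and which had a probe set (a group of short array probes read as 1 value) paired with that symbol alone. The rule found 61 genes among the 18132 genes of the array, each read from the 1 of its probe sets that was brightest on average. Of 69 such names in the RefSeq gene table, the other 8 had no probe set of their own. The members carried 104 probe sets, and 29 members had more than 1. Of the 61 genes, 54 lie in the large cluster on chromosome 6, 4 in a cluster between 149782689 and 149887965 on chromosome 1, 2 in a smaller cluster further along chromosome 1, and 1 on chromosome 12 (RefSeq, GRCh38.p14).

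The cells were KYSE150, a line from a human squamous carcinoma of the oesophagus, after transient transfection with the pcDNA3.1 plasmid for LOXL2 delta72, the pcDNA3.1 plasmid for LOXL2 WT, or the vector (Control), and RNA was taken at 48 h. LOXL2 is a secreted lysyl oxidase that also has reported nuclear roles, and the labels do not describe what delta72 removes. Each condition had 1 array, so no difference below has a replicate check or a p-value, and "higher" and "lower" describe these 3 arrays. The share of cells that took up plasmid is not given in the sources used here. Both comparisons against Control use the same Control array, so their values for a gene are given side by side and not as repeats of each other.

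In background, most of these genes are transcribed during S phase, when cells copy their DNA, and their short mRNAs lack introns. Their typical mRNA ends in a stem-loop bound by SLBP in place of a poly(A) tail, although several members also make polyadenylated transcripts that read past the stem-loop. The labelling kit named in the labels primes cDNA from poly(A) tails. The values therefore report mainly polyadenylated histone transcripts and need not follow the stem-loop form. The genes are also near-identical in sequence within a family, so a probe set can pick up related transcripts. Of the 22 members read above the filter described next, 13 are represented by a probe set with the _s or _x suffix, which Affymetrix uses for sets that are shared or not fully specific, and their assignment to 1 gene is uncertain.

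A gene was called dim when its mean lay below log2 5.27, the 40th percentile of all probe sets other than controls, and 39 of the 61 members were dim. The 22 others passed on the mean over all 3 arrays, and 21 of them lay above the filter on every array, H2BC6 being the exception. Median array values were 5.94 on the LOXL2 delta72 array, 5.93 on the LOXL2 WT array and 5.95 on the Control array. LOXL2 itself read 14.06 with LOXL2 delta72 and 14.05 with LOXL2 WT, against 7.46 on Control. All 6 squamous markers with a probe set of their own, among them KRT5 and KRT14, were above the filter, as were 2 of 8 markers of fibroblasts, leukocytes and endothelium (CD3E and PECAM1). Background probe sets, which match no human sequence, differed from Control by at most 0.173 with LOXL2 delta72 and 0.285 with LOXL2 WT, and between the forms by at most 0.152. Their values ran from 2.29 to 10.84 with the base composition of the probes, so it is not known how far above background a member with a low value lies. Bacterial hybridisation control probe sets had a median difference from Control of -0.23 with LOXL2 delta72 and -0.09 with LOXL2 WT. The other 61 control probe sets spread more widely. They differed from Control by -0.44 to 0.34 with LOXL2 delta72 and by -0.64 to 0.33 with LOXL2 WT. Between the forms they ran from -0.49 to 0.29. Their lowest value with LOXL2 WT thus lay past the 1.5-fold cut used below, which is 0.58 in log2.

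A subset of histone genes was higher on both LOXL2 arrays than on Control, while other members were level or lower. Most of the subset were H2A and H2B genes, families that hold 6 and 8 of the 22 members above the filter. Several of these have another probe set that was lower than Control in at least 1 comparison, as given below. With LOXL2 delta72, 6 of the 22 members above the filter were at least 1.5-fold higher than Control, namely H1-2, H2AC6, H2AC15, H2BC4, H2BC5 and H2BC21, beside 1.28% of all genes above the filter. With LOXL2 WT, 4 of the 22 were at least 1.5-fold higher, namely H2AC6, H2AC11, H2AC15 and H2BC5, beside 1.85% of all genes. None of the 22 was at least 1.5-fold lower in either comparison, where 0.499% and 0.867% of all genes were. The median over the 22 was 0.13 with LOXL2 delta72 and 0.10 with LOXL2 WT, against medians over all genes of 0.00 and -0.01 (log2 differences from Control). By sign alone, 16 of 22 were higher with LOXL2 delta72 and 13 of 22 with LOXL2 WT, beside 49.7% and 48.0% of all genes. Over all 61 members without the filter, 41 were higher with LOXL2 delta72 and 30 with LOXL2 WT, beside 46.8% and 43.9% of all 18132 genes. Their median was 0.10 with LOXL2 delta72 and -0.03 with LOXL2 WT, so the direction for LOXL2 WT depends on leaving dim genes out. When a gene was read as the median over its probe sets, 18 members were above the filter. At 1.5-fold, 2 of them were higher with LOXL2 delta72 and 1 with LOXL2 WT, beside 1.07% and 1.67% of all genes read this way. These were H1-2 and H2AC6 with LOXL2 delta72 and H2AC6 with LOXL2 WT. Each has 1 probe set only, with the _x suffix for H1-2 and the _s suffix for H2AC6. An alternative chosen after seeing the data left out probe sets of the _s or _x suffix. Then 3 of 14 members were at least 1.5-fold higher with LOXL2 delta72 and 3 of 14 with LOXL2 WT, beside 1.3% and 1.92% of all genes read this way.

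**Figure D1:**
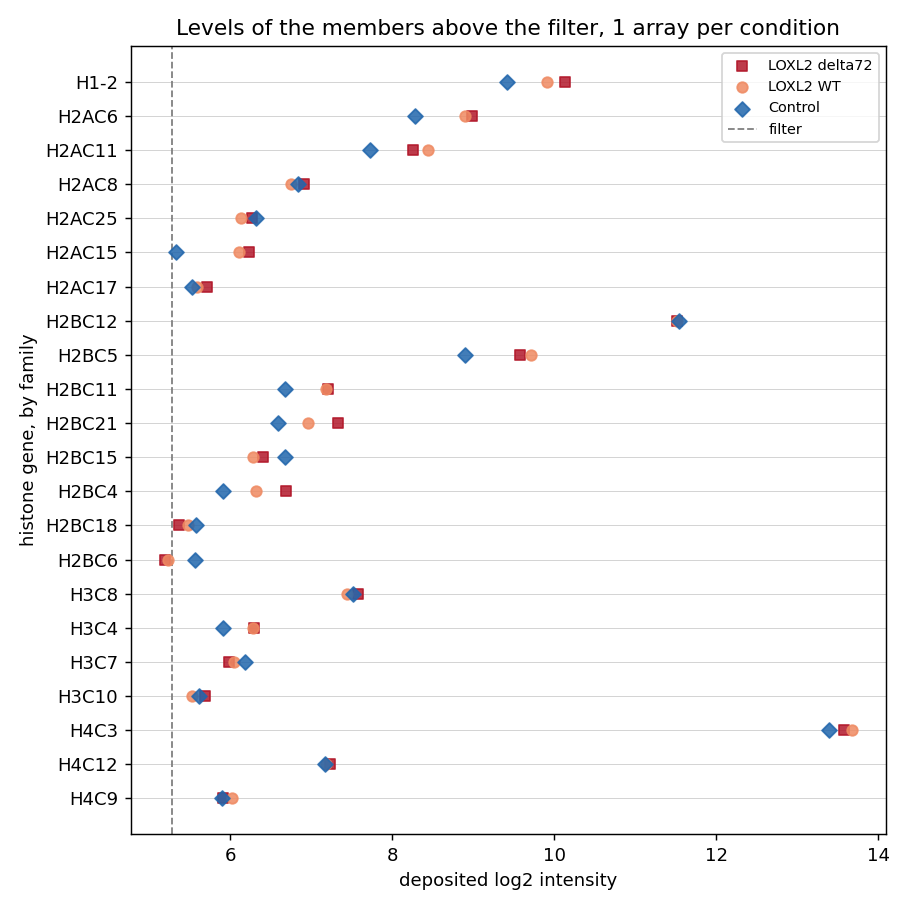
Deposited log2 intensity (horizontal axis) of the 22 histone genes above the filter, 1 row per gene ordered by family, with red squares for LOXL2 delta72, orange circles for LOXL2 WT and blue diamonds for Control, 1 array each. The blue diamond stands left of both other marks for H1-2, H2AC6, H2AC11, H2AC15, H2BC4, H2BC5, H2BC11, H2BC21, H3C4 and H4C3, and by less for H2AC17, H4C9 and H4C12. The dashed line marks the filter at 5.27.

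The promoters of the 5 members below are shown because 4 of these genes were higher on both LOXL2 arrays (H1-2, H2AC6, H2AC11 and H2BC5) and 1, H2BC12, was flat. Each is the 250 bases before the RefSeq start, read 5′ to 3′ on the gene's strand in GRCh38.p14. Capitals mark matches on either strand to the histone promoter motifs searched: the octamer core ATTTGCA bound by POU2F1, the TATA box TATAAA, the CCAAT box CCAAT bound by NF-Y, and the H1 box AAACACA. Matches that overlap run together. The windows are chr6:26056471-26056720 on the minus strand for H1-2, chr6:26123922-26124171 on the plus strand for H2AC6, chr6:27132793-27133042 on the plus strand for H2AC11, chr6:26157871-26158120 on the plus strand for H2BC5 and chr6:27146859-27147108 on the minus strand for H2BC12.
H1-2: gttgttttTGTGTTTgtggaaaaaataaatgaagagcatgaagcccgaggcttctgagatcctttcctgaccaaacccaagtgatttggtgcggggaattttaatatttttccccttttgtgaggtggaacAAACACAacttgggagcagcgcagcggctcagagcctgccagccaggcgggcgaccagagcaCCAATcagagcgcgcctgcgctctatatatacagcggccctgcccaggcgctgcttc
H2AC6: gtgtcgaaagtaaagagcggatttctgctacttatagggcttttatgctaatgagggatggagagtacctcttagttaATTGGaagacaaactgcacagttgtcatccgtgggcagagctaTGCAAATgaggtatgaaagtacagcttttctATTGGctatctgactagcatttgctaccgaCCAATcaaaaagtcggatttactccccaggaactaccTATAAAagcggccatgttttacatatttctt
H2AC11: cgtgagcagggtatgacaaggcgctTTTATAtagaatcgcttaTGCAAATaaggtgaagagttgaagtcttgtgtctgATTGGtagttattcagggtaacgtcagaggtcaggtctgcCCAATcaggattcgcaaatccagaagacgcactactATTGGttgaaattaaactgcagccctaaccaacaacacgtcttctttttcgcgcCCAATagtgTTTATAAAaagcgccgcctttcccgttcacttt
H2BC5: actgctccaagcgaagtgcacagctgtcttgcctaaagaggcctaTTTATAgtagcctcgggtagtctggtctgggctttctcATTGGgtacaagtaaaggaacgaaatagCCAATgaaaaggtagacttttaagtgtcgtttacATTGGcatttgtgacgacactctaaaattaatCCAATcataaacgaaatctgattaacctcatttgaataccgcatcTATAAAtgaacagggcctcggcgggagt
H2BC12: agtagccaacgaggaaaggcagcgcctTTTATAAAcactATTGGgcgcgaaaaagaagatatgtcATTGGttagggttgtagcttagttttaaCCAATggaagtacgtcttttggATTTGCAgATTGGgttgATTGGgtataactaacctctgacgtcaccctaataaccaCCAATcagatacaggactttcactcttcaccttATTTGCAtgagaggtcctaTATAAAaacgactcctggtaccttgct

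The H1 box, the octamer core and the HINFP core followed the histone families, while the CCAAT and TATA boxes were spread over several of them. RefSeq held promoters for 56 of the 61 members. The H1 box was found in 6 of 6 H1 promoters and in 0 of the other members' promoters, against 4.95% of the 27305 promoters in the table. The octamer core was found in 11 of 14 H2A and 14 of 18 H2B promoters, against 3.70% of all. A CCAAT box was in every H1, H2A, H2B and H3 member promoter and in 3 of 10 H4 promoters, against 33.0% of all. The HINFP core GGTCCG, part of the site for the H4 gene activator HINFP, was found in 9 of 10 H4 promoters, against 9.33% of all. A TATA box was found in 36 of 56, against 11.1%. H2BC5, which was higher on both LOXL2 arrays, holds no octamer core in this window, while the flat gene H2BC12 holds 2. Among members above the filter, the 11 with the octamer core had a median difference from Control of 0.38 with LOXL2 delta72 and 0.36 with LOXL2 WT. The 10 without it had medians of 0.06 and -0.03. Ranges with LOXL2 delta72 were -0.37 to 0.77 and -0.28 to 0.90. The split also divides the families: the 11 are H2A and H2B genes and H3C4, while the 10 include H1-2 and H3 and H4 genes. Among H2A and H2B genes without the octamer core, H2AC15 and H2BC5 were higher on both LOXL2 arrays and H2AC25 and H2BC15 lower, on the sets used. Whether the motif has a part in the differences was not tested.

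Linker histone H1 binds the DNA between nucleosomes. H1-2 (chr6:26055740-26056470), which encodes a widely expressed somatic H1, read 10.13 on the LOXL2 delta72 array and 9.91 on the LOXL2 WT array, against 9.42 on Control. It was the single H1 gene above the filter, and its difference from Control was 0.72 (1.64-fold) with LOXL2 delta72 and 0.49 (1.41-fold) with LOXL2 WT, on 1 probe set with the _x suffix. The 5 other H1 genes were dim, with differences from Control between -0.29 and 0.18 with LOXL2 delta72 and between -0.14 and 0.18 with LOXL2 WT. H1-4, the lowest of them with LOXL2 delta72, read 4.69 with LOXL2 delta72 and 4.85 with LOXL2 WT, against 4.98 on Control.

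H2A forms a dimer with H2B in the nucleosome core, and 6 of 15 H2A members were above the filter. H2AC6 (chr6:26124172-26124690) read 8.98 with LOXL2 delta72 and 8.90 with LOXL2 WT, against 8.28 on Control. H2AC11 (chr6:27133043-27133535) read 8.26 with LOXL2 delta72 and 8.44 with LOXL2 WT, against 7.73 on Control. Both LOXL2 arrays were thus above Control for both genes. The differences were 0.70 and 0.61 for H2AC6, on its 1 probe set, which has the _s suffix. They were 0.53 and 0.72 for H2AC11, on the brighter of its sets. The dimmer H2AC11 set, below the filter, differed the other way, at -0.12 with LOXL2 delta72 and -0.26 with LOXL2 WT, and the median over both sets brought H2AC11 to 0.21 and 0.23. H2AC15 read 6.23 with LOXL2 delta72 and 6.11 with LOXL2 WT, against 5.33 on Control, which gave 0.90 (1.87-fold) and 0.78 (1.72-fold). Its next probe set pointed the other way, at 5.50 with LOXL2 delta72 and 5.78 with LOXL2 WT, against 5.82 on Control, and the SD of the difference over these sets was 0.86 and 0.58. H2AC15 is therefore not settled by its probe sets. The remaining 3 were within 1.5-fold of Control. H2AC8 read 6.91 with LOXL2 delta72 and 6.75 with LOXL2 WT, against 6.84 on Control. H2AC17 read 5.71 with LOXL2 delta72 and 5.59 with LOXL2 WT, against 5.53 on Control. The other sets of these genes, both above the filter, were at 0.01 and 0.05 for H2AC8 and at 0.29 and 0.22 for H2AC17. H2AC25 read 6.27 with LOXL2 delta72 and 6.13 with LOXL2 WT, against 6.31 on Control.

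Among the 18 H2B members, 8 were above the filter and they fell into 3 kinds. H2BC5 (chr6:26158121-26171349) was higher on both LOXL2 arrays with every one of its 3 probe sets. The first read 9.58 with LOXL2 delta72 and 9.71 with LOXL2 WT, against 8.89 on Control. The second read 9.34 and 9.30 on the same LOXL2 arrays, against 8.80 on Control, and the third 8.57 and 8.46, against 7.89 on Control. The difference of the first was 0.68 (1.60-fold, SD 0.08 over the 3 sets) with LOXL2 delta72 and 0.81 (1.76-fold, SD 0.16) with LOXL2 WT. All 3 sets thus gave both LOXL2 arrays above Control.

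On their brightest sets, H2BC21 (chr1:149884459-149886682) and H2BC4 (chr6:26113170-26123926) were higher with LOXL2 delta72 than with LOXL2 WT as well as higher than Control. H2BC21 read 7.33 with LOXL2 delta72 and 6.96 with LOXL2 WT, against 6.58 on Control. H2BC4 read 6.68 with LOXL2 delta72 and 6.32 with LOXL2 WT, against 5.91 on Control, on a probe set with the _s suffix. The step between the forms was 0.36 for each, a value exceeded by no other member above the filter. The pooled SD between probe sets of a gene was 0.113 in this comparison, over the 7163 genes with more than 1 set. That SD describes how probe sets differ on the same arrays and does not measure the spread between arrays. The dimmer H2BC4 probe set differed by 0.13 with LOXL2 delta72 and -0.07 with LOXL2 WT from Control, and both dimmer H2BC21 sets, which hold identical values and lie below the filter, by -0.20 and -0.14. Between the forms, the dimmer H2BC4 set was at 0.20, while the dimmer H2BC21 sets were reversed, at -0.06. The brightest H2BC11 set, which has the _s suffix, read 7.20 with LOXL2 delta72 and 7.18 with LOXL2 WT, against 6.67 on Control. H2BC11 was thus higher by 0.53 and 0.50 on that set. Its dimmer sets, both below the filter, differed by 0.13 and -0.18 with LOXL2 delta72 and by 0.09 and -0.48 with LOXL2 WT.

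The other 4 H2B genes were level with Control or below it. H2BC12, at 11.51 with LOXL2 delta72 and 11.52 with LOXL2 WT, against 11.54 on Control, was flat across the 3 arrays, and its dimmer set, below the filter, was at 0.26 with LOXL2 delta72 and 0.01 with LOXL2 WT. H2BC15 read 6.40 with LOXL2 delta72 and 6.28 with LOXL2 WT, against 6.67 on Control. H2BC6 read 5.19 and 5.23 on these arrays, against 5.56 on Control, and both of its dimmer probe sets were lower as well, by -0.37 and -0.42 with LOXL2 delta72 and by -0.27 and -0.31 with LOXL2 WT. H2BC18 read 5.37 with LOXL2 delta72 and 5.48 with LOXL2 WT, against 5.58 on Control, which put both LOXL2 arrays below Control for H2BC15, H2BC6 and H2BC18 on their brightest sets.

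**Figure D2:**
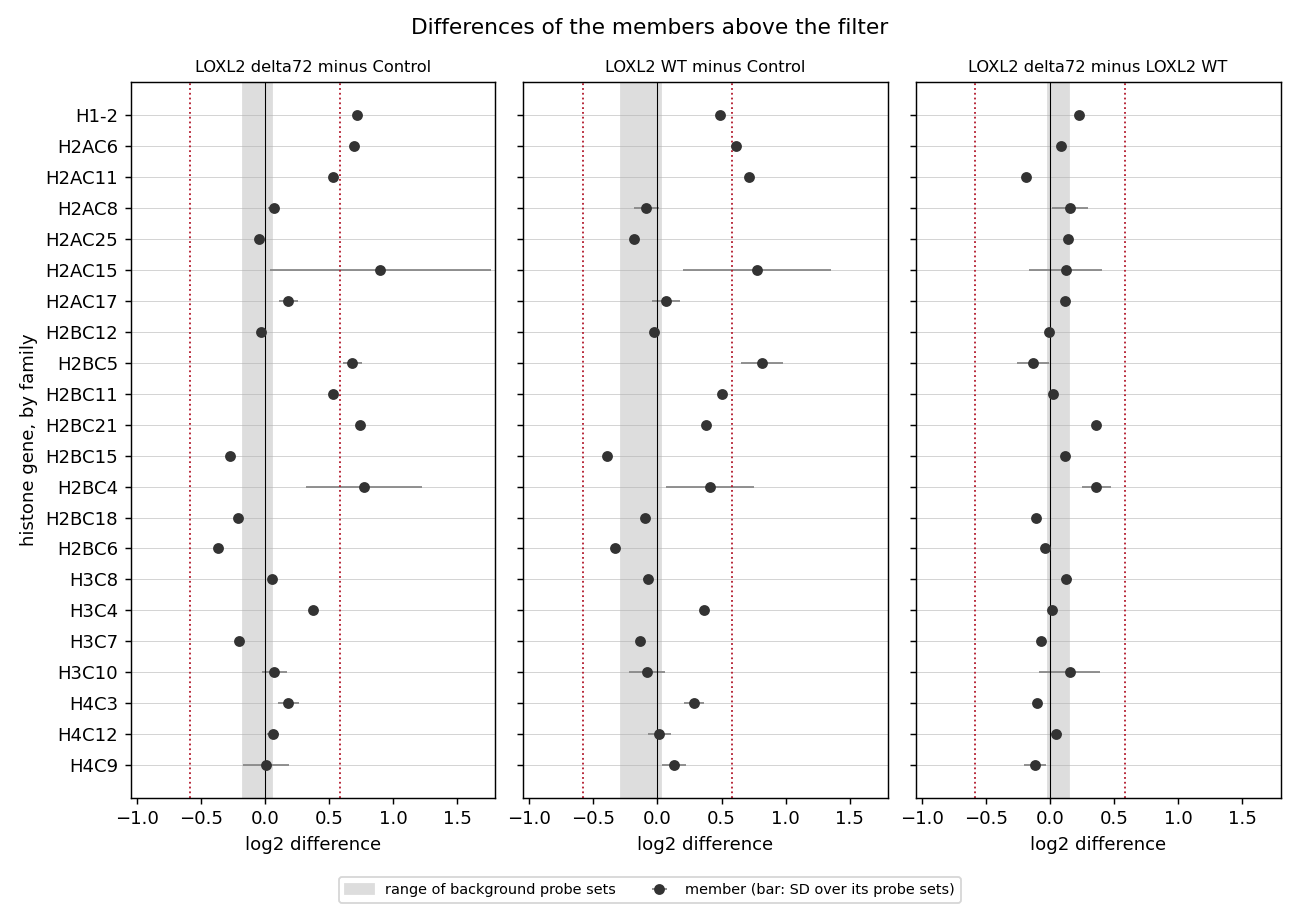
Log2 difference (horizontal axis) of the 22 histone genes above the filter in 3 panels: LOXL2 delta72 minus Control, LOXL2 WT minus Control, and one form minus the other (LOXL2 delta72 minus LOXL2 WT). Points are the representative probe set, bars the SD over a gene's probe sets above the filter where it has more than 1, the grey band the range of the background probe sets, and dotted lines 1.5-fold. Points right of the dotted line are 6 genes in the left panel, 4 in the middle panel and none in the right panel.

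H3 and H4 form the tetramer at the centre of the nucleosome, and none of their genes above the filter was at least 1.5-fold from Control. Of 10 H3 members, 4 were above the filter. H3C4 read 6.29 with LOXL2 delta72 and 6.27 with LOXL2 WT, against 5.91 on Control, a difference of 0.38 and 0.36. H3C7 read 5.98 with LOXL2 delta72 and 6.05 with LOXL2 WT, against 6.19 on Control, and its other probe set was lower too, by -0.23 and -0.15. H3C8 read 7.57 with LOXL2 delta72 and 7.44 with LOXL2 WT, against 7.52 on Control. H3C10 read 5.68 with LOXL2 delta72 and 5.53 with LOXL2 WT, against 5.61 on Control. On these sets the Control array lay between the LOXL2 arrays for both genes. Both other H3C8 sets above the filter kept that order, at 0.06 and 0.04 with LOXL2 delta72 and at -0.15 and -0.14 with LOXL2 WT. The other H3C10 set above the filter had the reverse order, at 5.27 with LOXL2 delta72 and 5.45 with LOXL2 WT, against 5.34 on Control, which turned the difference between the forms to -0.18, against 0.15 on the brightest set. Of 12 H4 members, 3 were above the filter. H4C3, at 13.57 with LOXL2 delta72 and 13.67 with LOXL2 WT, against 13.39 on Control, was higher by 0.18 and 0.28, and its other probe set by 0.07 and 0.18. Its value lies near the top of the scale, which ends at 14.55 on the LOXL2 delta72 array and 14.56 on the LOXL2 WT and Control arrays, and whether differences are compressed there was not tested. H4C12 read 7.23 with LOXL2 delta72 and 7.18 with LOXL2 WT, against 7.17 on Control. H4C9 read 5.90 with LOXL2 delta72 and 6.02 with LOXL2 WT, against 5.89 on Control. The second sets of both, also above the filter, were not higher than Control, at -0.0006 and -0.11 for H4C12 and at -0.24 and -0.01 for H4C9, so neither gene has a settled direction.

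The dim members are given for completeness, since their values may be mostly background. With LOXL2 delta72, none of the 39 was at least 1.5-fold higher or lower than Control, beside 1.01% and 0.469% of all 18132 genes. With LOXL2 WT, 2 of them were at least 1.5-fold higher and none was lower, beside 1.42% and 0.877% of all genes. H2AC20 read 4.02 with LOXL2 delta72 and 4.53 with LOXL2 WT, against 3.87 on Control. The other H2AC20 set, with the _x suffix, differed by -0.37 with LOXL2 delta72 and 0.10 with LOXL2 WT. H4C5, which lay just under the filter, read 5.37 with LOXL2 delta72 and 5.48 with LOXL2 WT, against 4.87 on Control, and its other probe set, with the same Control value, was higher by 0.35 and 0.26. H4C8 was also higher, by 0.52 with LOXL2 delta72 and 0.42 with LOXL2 WT. In the H4 family as a whole, 11 of 12 genes were higher than Control on each LOXL2 array, beside 46.8% and 43.9% of all genes without the filter, with a median of 0.14 and 0.19. The H4 genes encode the same protein and the probe sets may share transcripts, so these are not 12 separate readings. The count also rests on the brightest set of each gene, and the second sets of H4C9 and H4C12 given above point the other way.

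**Figure D3:**
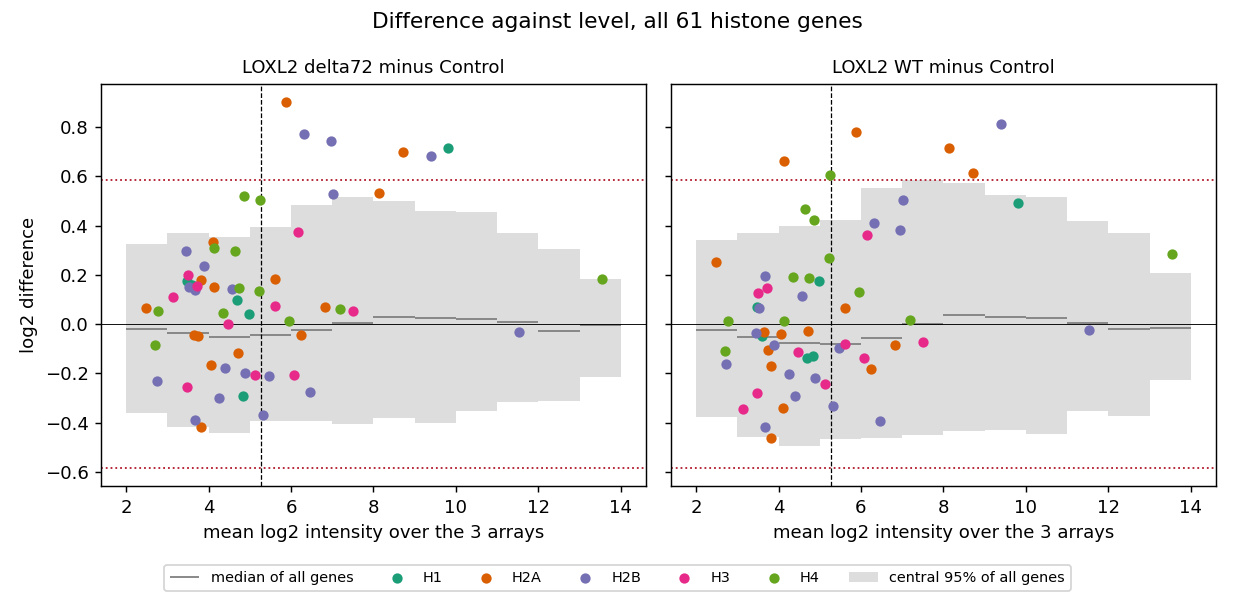
Log2 difference from Control (vertical axis) against the mean log2 intensity over the 3 arrays (horizontal axis) for all 61 histone genes, coloured by family, with LOXL2 delta72 on the left and LOXL2 WT on the right. The grey bars give the central 95% and the grey ticks the median of all 18132 genes in steps of 1 log2 unit, the dashed line marks the filter at 5.27, and the dotted lines mark 1.5-fold. The 6 points above the upper dotted line on the left are all right of the filter, and 2 of the 6 on the right are left of it.

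Between the forms, few histone genes stood apart. None of the 22 members above the filter was at least 1.5-fold higher with LOXL2 delta72 than with LOXL2 WT, beside 0.18% of all genes, and none was 1.5-fold lower, beside 0.0409%. The differences ran from -0.18 for H2AC11 to 0.36 for H2BC4 and H2BC21, with a median of 0.07 against 0.00 over all genes, and 14 of 22 were higher with LOXL2 delta72, beside 50.4% of all genes. H1-2 followed at 0.23 and H2AC8 at 0.16. Without the filter, 38 of 61 members were higher, beside 51.8% of all genes, and 1 of 61 passed 1.5-fold, beside 0.221%. This was the dim gene H2AC7, at 4.44 with LOXL2 delta72 and 3.76 with LOXL2 WT, on a probe set with the _x suffix.

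Several H2A and H2B genes are transcribed away from each other out of 1 shared promoter, which gives a measure of position that the rule did not use. In the RefSeq promoter table, 11 member pairs had divergent starts within 500 bases, and both genes of 3 pairs were above the filter. In the pair H2AC6 and H2BC4, with starts 246 bases apart, both genes were higher than Control, by 0.70 and 0.77 with LOXL2 delta72 and by 0.61 and 0.41 with LOXL2 WT. The dimmer H2BC4 set was at 0.13 and -0.07. H2AC6 has 1 set only, and that set and the brighter H2BC4 set both have the _s suffix. In the pair H2AC11 and H2BC11, with starts 248 bases apart, both were higher on their brightest sets, by 0.53 and 0.53 with LOXL2 delta72 and by 0.72 and 0.50 with LOXL2 WT. The brightest H2BC11 set also has the _s suffix. The dimmer set of H2AC11, at -0.12 and -0.26, and 1 of the dimmer H2BC11 sets, at -0.18 and -0.48, were lower than Control. The pair H2AC15 and H2BC15 was split, at 0.90 and -0.28 with LOXL2 delta72 and at 0.78 and -0.40 with LOXL2 WT, where the H2AC15 probe sets disagree. H2BC21 shares its promoter with the dim gene H2AC20, which differed by 0.15 with LOXL2 delta72 and 0.66 with LOXL2 WT. The other H2AC20 set was at -0.37 and 0.10.

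**Figure D4:**
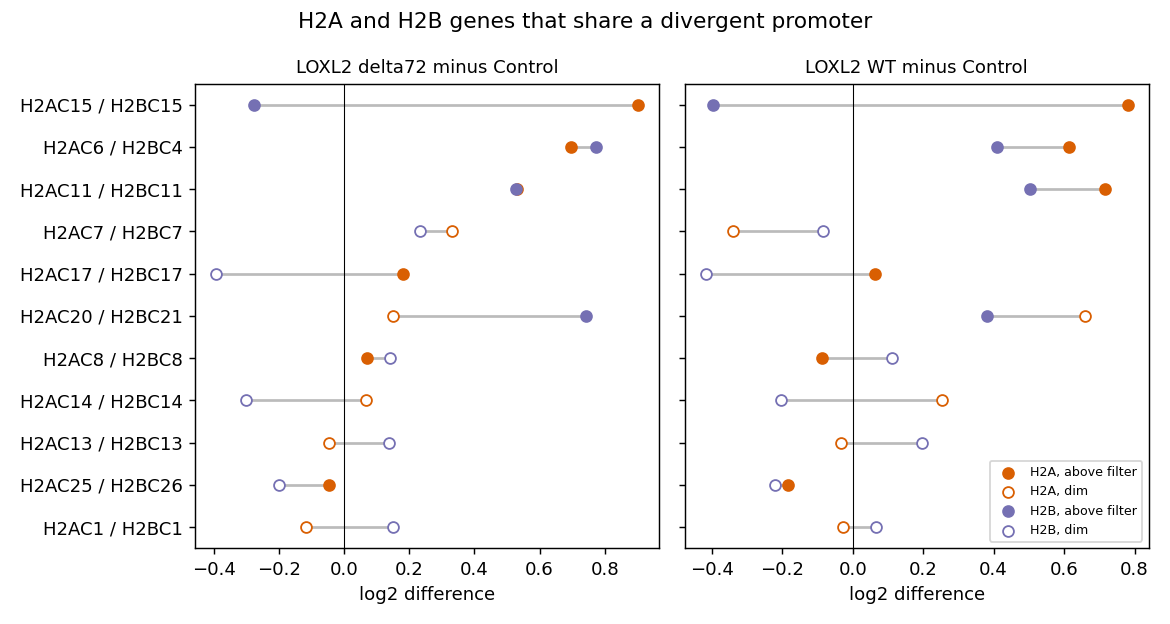
Log2 difference from Control (horizontal axis) of the H2A (orange) and H2B (purple) gene of the 11 divergent pairs, joined by a line, for LOXL2 delta72 on the left and LOXL2 WT on the right. Filled marks are genes above the filter and open marks dim genes. Both marks of H2AC6 / H2BC4 and of H2AC11 / H2BC11 lie right of 0 in both panels, and those of H2AC15 / H2BC15 lie on opposite sides.

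RefSeq spans also differed among the members, a feature looked at after the values were seen. A span over 1000 bases, longer than the usual short intronless unit, was annotated for 7 members. Of these, 6 were above the filter, against 16 of the other 54, beside 12232 of all 18132 genes. Of these 6, H2BC4, H2BC5, H2BC21 and H3C4 were higher than Control with each form and H2BC12 and H2BC18 were not. Beside them, 49.7% of all genes above the filter were higher with LOXL2 delta72 and 48.0% with LOXL2 WT. All but H3C4 are H2B genes, so span and family are not separate here. The dimmer sets of H2BC4 and H2BC21 did not repeat the values of their brightest sets, as given above. The median difference of the 6 from Control was 0.53 with LOXL2 delta72 and 0.37 with LOXL2 WT, against 0.07 and 0.04 for the 16 shorter members above the filter.

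Probe sets paired with several gene symbols were outside the rule, and 9 of them named at least 1 histone gene of the kinds above. They were looked at after the values were seen, and no gene is named from them. Of the 4 above the filter, a set shared by 2 H4 genes read 7.74 with LOXL2 delta72 and 7.72 with LOXL2 WT, against 6.63 on Control. The pair of sets shared by the same 2 H2A genes read 10.27 and 9.99 with LOXL2 delta72, 9.87 and 9.53 with LOXL2 WT, and 9.80 and 9.43 on Control. For these H2A sets the LOXL2 delta72 array stood above both others, by 0.40 and 0.46 over LOXL2 WT. A further H4 set was higher than Control by 0.29 and 0.28.

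A list of histone genes taken as replication-independent was set beside the members. Of 9 replication-independent histone genes above the filter, 3 were higher with LOXL2 delta72 and 4 with LOXL2 WT than Control, beside 49.7% and 48.0% of all genes. None was at least 1.5-fold higher, beside 1.28% and 1.85% of all genes, or 1.5-fold lower, beside 0.499% and 0.867%. H2AX, the H2A variant phosphorylated at DNA breaks, read 11.88 with LOXL2 delta72 and 11.96 with LOXL2 WT, against 11.97 on Control. H2AZ1, a variant at promoters, read 13.05 with each form, against 13.19 on Control. H3-3B, one of the genes for the replacement histone H3.3, read 13.06 and 13.02, against 12.96 on Control. H2AZ2 was lower by -0.24 with LOXL2 delta72 and -0.22 with LOXL2 WT, and MACROH2A1 was higher by 0.16 and 0.30. H1-10 was at -0.04 and -0.27, H2AJ at 0.22 and -0.05, and the single-symbol probe set of H3-3A was dim, at 2.37, 2.51 and 2.52 on the LOXL2 delta72, LOXL2 WT and Control arrays. H3-4, a testis histone gene outside both the name rule and this list, was at 0.19 and 0.08.

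The machinery that makes and ends histone mRNA was described with lists of related genes. Of 28 genes of histone mRNA 3′ end processing, translation and decay above the filter, 17 were higher with LOXL2 delta72 and 19 with LOXL2 WT than Control, beside 49.7% and 48.0% of all genes, with medians of 0.04 and 0.09. In each comparison 1 was at least 1.5-fold higher, beside 1.28% and 1.85% of all genes. That gene was LSM10, a subunit of the U7 particle that cuts histone mRNA, at 10.66 with LOXL2 delta72 and 10.70 with LOXL2 WT, against 10.06 on Control. Its partner LSM11 was lower, by -0.35 and -0.23, ZNF473, another U7 particle protein, was higher by 0.37 and 0.38, and the cleavage factor gene CPSF2 by 0.32 and 0.42. SLBP, the stem-loop binding protein, was at 0.21 and 0.27, and CASP8AP2, which helps to recruit the processing complex, at 0.04 and 0.25.

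Of 18 genes of histone gene transcription and its cell cycle control, 13 were higher with LOXL2 delta72 and 11 with LOXL2 WT, beside 49.7% and 48.0% of all genes, with medians of 0.06 and 0.11. None was at least 1.5-fold higher with LOXL2 delta72, and 2 were with LOXL2 WT, beside 1.28% and 1.85% of all genes. NPAT, the coactivator of histone gene clusters, read 7.75 with LOXL2 delta72 and 7.90 with LOXL2 WT, against 7.81 on Control. CDC25A, a phosphatase that activates CDK2, was higher by 0.52 and 0.66, CCNE2, a cyclin that works with CDK2, by 0.45 and 0.63, and E2F3 by 0.32 and 0.42. CCNA2, the cyclin of S and G2 phase, was lower by -0.58 and -0.40, and E2F1 by -0.16 and -0.16.

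Most S phase genes were lower with LOXL2 delta72 than Control by sign, but by small steps. Of 27 above the filter, 23 were lower with LOXL2 delta72 and 15 with LOXL2 WT than Control, beside 49.8% and 51.7% of all genes. Their medians were -0.11 and -0.03. Single background probe sets reached such sizes, but their range does not measure the spread of a median over 27 genes. None was at least 1.5-fold lower, beside 0.499% and 0.867% of all genes, and the lowest values were -0.31 and -0.36. PCNA, the sliding clamp of DNA polymerases, read 11.28 with LOXL2 delta72 and 11.46 with LOXL2 WT, against 11.48 on Control. CDC6, which loads the replicative helicase, was the 1 gene of this list at least 1.5-fold higher with LOXL2 WT, beside 1.85% of all genes, at 0.64, and was at 0.46 with LOXL2 delta72. MCM10 was at 0.18 and 0.40, MCM5 at -0.25 and -0.36, and POLD1 at -0.13 and -0.33. In RNA from a whole culture, a change in the share of cells in S phase and a change in RNA per cell cannot be told apart.

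Histone chaperone and assembly genes had medians of -0.09 with LOXL2 delta72 and -0.03 with LOXL2 WT, with 9 of 24 higher in each comparison, beside 49.7% and 48.0% of all genes. None was at least 1.5-fold higher, beside 1.28% and 1.85% of all genes, or 1.5-fold lower, beside 0.499% and 0.867%. HIRA, the H3.3 chaperone, was at 0.37 and 0.26, SUPT6H at 0.34 and 0.40, CHAF1B of the replication-coupled assembly factor at 0.21 and 0.29, and HJURP, the centromere histone chaperone, at -0.34 and -0.47. Of 15 genes of the poly(A) machinery, 8 were higher with LOXL2 delta72 and 10 with LOXL2 WT, beside 49.7% and 48.0% of all genes, with medians of 0.01 and 0.06. CSTF3, a subunit of the cleavage stimulation factor, read 10.17 with LOXL2 delta72 and 10.04 with LOXL2 WT, against 10.63 on Control, and was the gene of this list at least 1.5-fold lower with LOXL2 WT, beside 0.867% of all genes. PAPOLA, the main poly(A) polymerase, was at -0.31 and -0.37, CPSF6 at 0.36 and 0.47, and FIP1L1 at 0.29 and 0.39. Whether these values have a part in the histone readings was not tested.

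**Figure D5:**
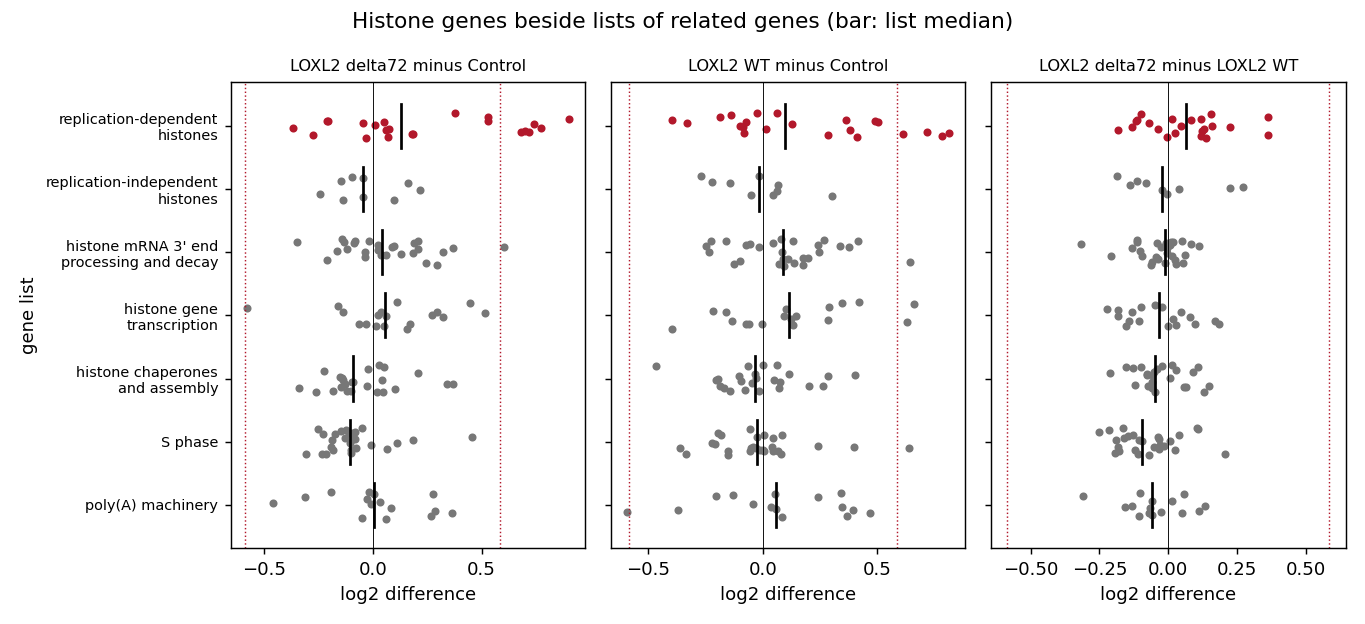
Log2 difference (horizontal axis) of every gene above the filter in the replication-dependent histone group (red, top row) and in 6 lists of related genes (grey), with a black bar at each list's median, for the 3 comparisons. The red points reach 0.90 in the left panel and 0.81 in the middle panel, and the S phase median lies at -0.11 and -0.03 in these panels.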

How the data were processed

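The authors deposited log2 intensities of 49395 probe sets on 3 arrays, and Affymetrix Expression Console and Partek are given in the submitters' processing notes, with no role for either. The log2 scale was read from the values, which lay between 2.07 and 14.56. The sources used here name no normalization algorithm, background correction or version. Total RNA (100 ng) was labelled with biotin, per the labels' protocols. Symbols came from the platform annotation, updated through Entrez identifiers (0 changed). Of 49293 non-control probe sets, 44988 had 1 symbol, 1832 several and 2473 none listed.

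Each gene was read from its brightest single-symbol probe set and called dim below the 40th percentile. Log2 differences were described by size (1.5-fold) with no test, because the number of arrays limits the precision. Counting was tested on simulated data. Members and lists were chosen with earlier results of these data known. The text names every member above the filter, and of each list up to 4 genes with the largest difference plus fixed genes such as SLBP and NPAT. Python 3.11.15 and pandas 2.3.3 were used. Alternatives were scaling to a common median, quantile normalization, lowess, the median over probe sets, no filter and a 60th percentile filter.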

Additional observations from a re-analysis of the deposited data

Results flagged for a closer look

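A probe set shared by 2 H4 genes, which the comparisons of single-symbol probe sets do not use, read 1.10 above Control with LOXL2 delta72 and 1.08 above Control with LOXL2 WT on the log2 scale. It drew attention because it is a signal in data outside the main measurement that lies above the Control array. A dimmer probe set shared by the same H4 genes differed by -0.04 and -0.19. The cause was not tested.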

How the results depend on the processing

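No paired analysis was possible because each condition has 1 array. Leaving out a replicate was likewise not possible. Scaling to a common median, quantile normalization and lowess left all counts and medians of members close to those reported (within 1.5 times, or within the pooled SD between probe sets), and none of the 66 single differences moved by more than that SD under any of these 3. Medians from Control at the 60th percentile filter, over 11 members, were 0.53 with LOXL2 delta72 and 0.38 with LOXL2 WT. Without the filter, the LOXL2 WT median over 61 members turned to -0.026. Counts of higher members at the 60th percentile were 10 of 11 for LOXL2 delta72 minus Control, 8 for LOXL2 WT minus Control and 7 for LOXL2 delta72 minus LOXL2 WT. The shares over all genes at that filter were 53.0%, 52.7% and 48.3%. With no filter the counts were 41, 30 and 38 of 61, beside 46.8%, 43.9% and 51.8% of all genes. Without the filter, 1 member was at least 1.5-fold higher with LOXL2 delta72 than with LOXL2 WT, beside 0.221% of all genes. With the median over probe sets, members at least 1.5-fold above Control numbered 2 with LOXL2 delta72 and 1 with LOXL2 WT of 18, beside 1.07% and 1.67% of all genes. In this setting 13 of 54 single differences moved by more than the pooled SD. An alternative chosen after seeing the data left out probe sets with the _s or _x suffix. Of the 14 members left, 3 were then at least 1.5-fold above Control with LOXL2 delta72, beside 1.3% of all genes. In the same 3 comparisons 9, 8 and 7 were higher, beside 49.5%, 47.4% and 51.4% of all genes. Over all genes, the counts at 1.5-fold were 157 higher and 61 lower with LOXL2 delta72 than Control and 226 and 106 with LOXL2 WT. After scaling to a common median they were 123 and 77, and 169 and 139. Between the forms they were 22 and 5, and 17 and 8 after lowess. The cause of these shifts was not tested. Single arrays and unknown background limit every value of a dim gene.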
